A study of Mus musculus with 6 samples.

Results

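The genes of the smooth muscle contractile apparatus were compared between fetal and adult basal mammary cells. The set held Acta2, Actg2, Myh11, Myl9, Mylk, Cnn1, Tagln, Tpm2, Smtn and Lmod1, which were chosen by name as the actin, myosin, kinase and thin filament genes of smooth muscle, and the rule used no value measured in these samples, although earlier results of these data were known when it was made. Members were found by matching the RefSeq accession of each non-control probe to these symbols, and all 10 genes had a probe, with 12 probes among the 55681 on the array (the array holds probes for 20660 genes that could be matched). Every probe was kept, and all 12 passed the filter on low signal, those of Myh11 and Lmod1 through their adult signal alone. A gene with several probes is described by its brightest probe, and the other probe of a member is given beside it. For genes of other lists whose difference is printed, other tested probes are given where their call or direction differed or their fold differed by over 1.5 times.

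RNA from 3 biological replicates of E18.5 fetal mammary cells and 3 of adult basal mammary cells was hybridized to one-color Agilent arrays, with 1 array for each replicate. All mice were C57Bl6J females, fetuses at embryonic day 18.5 and adults of 8–12 wk. Cells positive for CD31, CD45 or Ter119 were left out of both sorts, fetal cells were then taken as EpCAM++CD49f+ and adult cells as EpCAM+CD49f+ without BP-1. BP-1 was thus used for the adult population alone, and adult glands were digested overnight but fetal glands for a short time. The sort, the digestion and the age therefore changed together and cannot be told apart in any comparison below. How many animals made up a replicate is not given in the sources used here. The arrays lay on 2 slides, each with both populations. The scanner marked 76.4% to 83.3% of the probes of each array as well above background and none as saturated, and the number of arrays limits the precision. Values of single arrays are given below in the order of replicates 1 to 3.

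Smooth muscle contracts when myosin filaments pull on actin filaments. Calcium and calmodulin switch on myosin light chain kinase, which phosphorylates the regulatory light chain, and calponin, transgelin, tropomyosin, smoothelin and leiomodin act on the actin filament. In the mammary gland the same proteins are made by myoepithelial cells, the contractile outer layer of basal cells that squeezes milk from the alveoli in response to oxytocin. Many smooth muscle genes carry CArG boxes, the binding site of serum response factor, and some carry MCAT elements, bound by TEAD factors.

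Promoter sequence of 7 of the 10 genes (Acta2, Cnn1, Lmod1, Myl9, Mylk, Smtn and Tpm2) was taken from RefSeq for the GRCm38.p6 build, and the 250 bases before each annotated start were searched. The CArG box was searched in its exact form and in a form in which 1 of the 6 bases of its A and T core is C or G, and the MCAT core was searched as CATTCC on both strands. No match of one kind shared a base with another in these genes. An exact CArG box was found in Myl9, at 161 to 152 bases before the start, where 1.47% of all 32851 promoters in the table held one. The form with 1 C or G was found in Acta2 at 84 to 75 and at 34 to 25 bases before the start, and in Myl9 at 99 to 90 bases, where 7.24% of all promoters held one. CATTCC was found in Acta2, Lmod1, Mylk and Smtn, and 12.6% of all promoters held it. A match is a description of these letters only. The sequences of Acta2 and Myl9 are shown because they hold the CArG matches (in capitals, together with the MCAT match), and that of Cnn1 because its signal differed more than theirs while this window held none of the 3 motifs.
Acta2, chr19:34255374-34255523, minus strand: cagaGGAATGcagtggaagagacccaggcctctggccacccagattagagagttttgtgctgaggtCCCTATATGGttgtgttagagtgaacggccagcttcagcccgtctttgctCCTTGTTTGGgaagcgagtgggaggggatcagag
Myl9, chr2:156775214-156775463, plus strand: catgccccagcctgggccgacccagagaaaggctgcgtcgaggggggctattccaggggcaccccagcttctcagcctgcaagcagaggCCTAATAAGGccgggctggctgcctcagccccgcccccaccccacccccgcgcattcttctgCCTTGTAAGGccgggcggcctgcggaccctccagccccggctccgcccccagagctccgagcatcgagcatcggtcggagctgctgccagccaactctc
Cnn1, chr9:22099103-22099252, plus strand: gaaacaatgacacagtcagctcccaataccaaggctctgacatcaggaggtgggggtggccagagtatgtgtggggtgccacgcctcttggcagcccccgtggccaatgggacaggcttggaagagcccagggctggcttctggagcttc

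All members were higher in the adult basal dataset. For each of the 12 probes the lowest adult basal array was above the highest fetal array, which held for 35.0% of all tested probes in that direction. A probe was called when its Holm-adjusted p in limma was at most 0.05 and its difference at least 2-fold. By this rule 11 of the 12 member probes, and 9 of the 10 genes, were called higher in adult basal cells and 0 in fetal cells, where limma gave 0 at an unadjusted p under 0.05 as well. Of all 20448 tested probes, 5.18% were called higher in adult basal and 5.92% higher in fetal cells. With Benjamini-Hochberg in place of Holm adjustment, all 12 were called higher in adult basal cells, against 14.0% of tested probes. The log2 differences of the 10 genes (adult basal minus fetal) ran from 1.30 to 8.63 with a median of 4.28, against a median of 0.03 over all tested probes. With 1 array left out, between 8 and 11 member probes were called, and the count was 8 without fetal replicate 1 and without fetal replicate 2. The calls of Actg2 and Myl9 were lost without any 1 of the fetal arrays, that of Actg2 also without adult basal replicate 1 and that of Myl9 without adult basal replicate 3 (Holm-adjusted p from 0.051 to 0.11). In sorted cell suspensions such as these, fewer cells that make a transcript and less of it in each cell cannot be told apart.

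**Figure D1:**
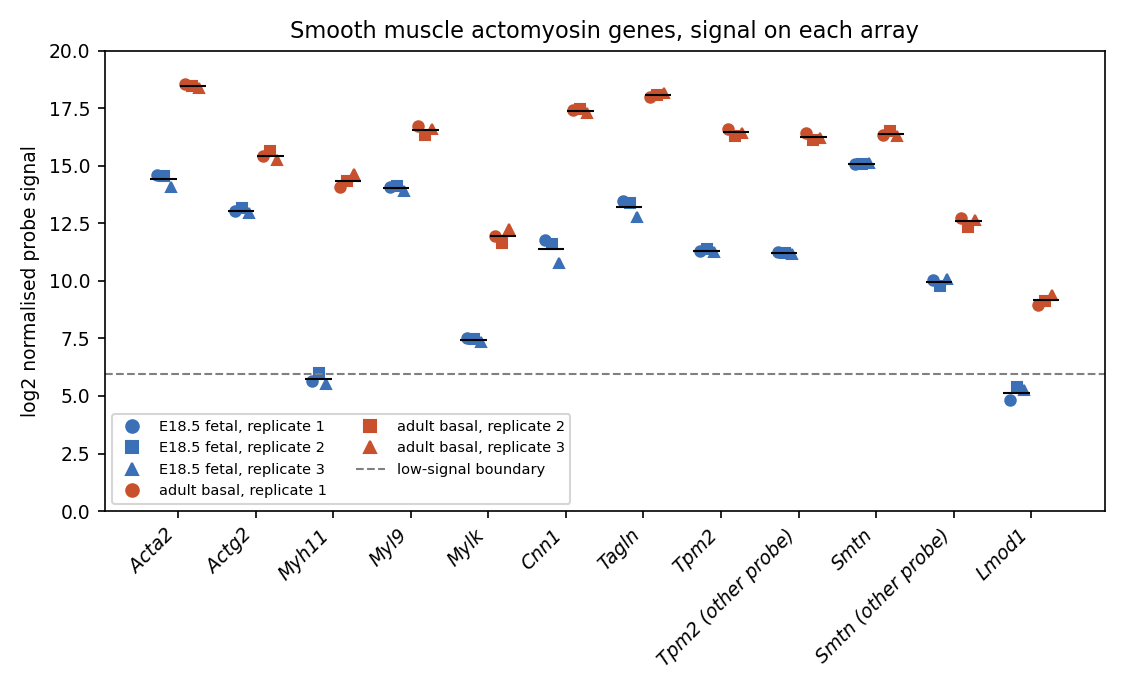
Log2 normalised signal of each member probe (y axis) on each of the 3 E18.5 fetal (blue) and 3 adult basal (red) arrays, with black bars at the population means and a dashed line at the low-signal boundary of 5.95. Adult basal points lie above fetal points for all 12 probes, and Myh11 and Lmod1 have fetal means of 5.72 and 5.15, below that line.

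Both smooth muscle actins were higher in adult basal cells. Acta2 encodes smooth muscle α-actin, the actin by which myoepithelial cells are usually recognised. Fetal replicates had log2 signals of 14.59, 14.55 and 14.07, and adult basal replicates 18.56, 18.48 and 18.39. The populations were separated by a gap of 3.8, and fetal replicate 3 was the lowest of the fetal arrays. The log2 difference was 4.07 (standard error 0.16), or 16.8-fold, with a Holm-adjusted p of 4.9e-04. Actg2 encodes smooth muscle γ-actin, the actin of gut and other visceral muscle. The fetal log2 signals were 13.03, 13.16 and 12.94 and the adult basal ones 15.41, 15.63 and 15.26. The populations did not overlap, and the difference of 2.39 (standard error 0.13) was 5.25-fold with a Holm-adjusted p of 0.0048.

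The myosin genes held the widest and one of the narrower differences of the set. Myh11 encodes the smooth muscle myosin heavy chain, the motor of the thick filament. In log2 signal, fetal cells read 5.64, 6.0 and 5.53, and adult basal cells 14.07, 14.34 and 14.64. The fetal values were near the low-signal boundary of 5.95, yet above the scanner's background threshold on all 3 arrays. The difference was 8.63 (standard error 0.18), a 396-fold change with a Holm-adjusted p of 7.0e-06, and only 4 of the 20448 tested probes moved further towards adult basal cells. Under normexp background correction, which compresses dim signals, it was 7.46. Myl9 encodes the regulatory light chain that is phosphorylated when smooth muscle contracts. Log2 signals of 14.10, 14.11 and 13.90 were measured in fetal cells and of 16.74, 16.35 and 16.58 in adult basal cells. The populations did not overlap, and the difference was 2.52 (standard error 0.13), or 5.74-fold, with a Holm-adjusted p of 0.004. Mylk encodes the kinase that places this phosphate. Fetal cells had log2 signals of 7.51, 7.48 and 7.34, whereas adult basal cells had 11.94, 11.64 and 12.25. The fetal arrays lay close together, and the difference was 4.50 (standard error 0.16), or 22.6-fold, with a Holm-adjusted p of 3.1e-04.

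Among the actin-binding members, calponin and tropomyosin had larger differences than either actin, and the interval of transgelin met that of Acta2 at its end. Cnn1 encodes calponin 1, which binds actin and restrains the myosin motor. The fetal log2 signals were 11.78, 11.62 and 10.76 and the adult basal ones 17.42, 17.47 and 17.28. The fetal spread (SD 0.55) was the widest of any member and came from fetal replicate 3. The difference was 6.01 (standard error 0.25), or 64.2-fold, with a Holm-adjusted p of 9.1e-04. Tagln encodes transgelin (SM22α), an actin-bundling relative of calponin. In log2 signal, fetal cells read 13.46, 13.39 and 12.76, and adult basal cells 18.01, 18.07 and 18.15. Here too fetal replicate 3 was the low array, and the difference was 4.87 (standard error 0.19), or 29.3-fold, with a Holm-adjusted p of 5.1e-04. Tpm2 encodes β-tropomyosin, which lies along the actin filament and governs access to it. By its brighter probe, fetal cells had log2 signals of 11.29, 11.38 and 11.24, against 16.61, 16.29 and 16.44 in adult basal cells. By the other Tpm2 probe, they were 11.27, 11.21 and 11.15 in fetal cells, against 16.41, 16.11 and 16.20 in adult basal cells. The probes gave like differences, 5.14 (standard error 0.12, 35.4-fold) and 5.03 (standard error 0.11, 32.7-fold), each with a Holm-adjusted p of 1.0e-05.

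Smoothelin was the member whose probes differed most. Smtn encodes an actin-binding protein found in contractile smooth muscle, and its 2 probes carry different RefSeq transcript accessions. The brighter probe had log2 signals of 15.08, 15.10 and 15.12 in fetal cells, against 16.36, 16.52 and 16.31 in adult basal cells. These did not overlap, but the difference of 1.30 (standard error 0.10, 95% interval 1.06 to 1.53) had a Holm-adjusted p of 0.057 and was the only one not called. The dimmer probe had log2 signals of 10.02, 9.79 and 10.08 in fetal cells, against 12.73, 12.36 and 12.66 in adult basal cells. Its difference was 2.62 (standard error 0.14, 95% interval 2.29 to 2.95), or 6.16-fold, with a Holm-adjusted p of 0.0044. Its call was lost without fetal replicate 1, fetal replicate 2 or adult basal replicate 3 (Holm-adjusted p from 0.051 to 0.087). Which transcripts each probe binds was not tested.

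Lmod1 encodes leiomodin 1, which starts new actin filaments in smooth muscle. Log2 signals of 4.81, 5.41 and 5.24 were measured in fetal cells and of 8.97, 9.12 and 9.38 in adult basal cells. All fetal values were below the low-signal boundary, although the scanner marked each as well above background, and the probe passed the filter through its adult signal. The difference was 4.0 on the log2 scale (standard error 0.18), with a Holm-adjusted p of 0.0016, and under normexp background correction it was 2.76.

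**Figure D2:**
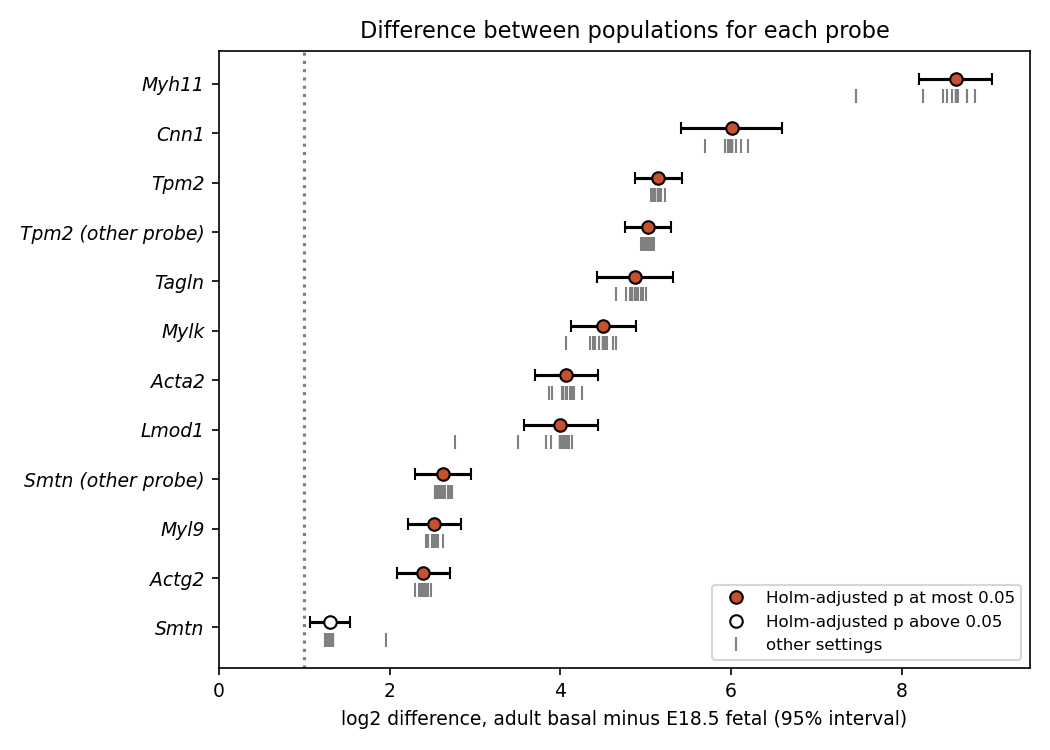
Log2 difference, adult basal minus E18.5 fetal, of each member probe with its 95% interval (n = 3 arrays in each population), ordered by size, with grey ticks for the same difference under the other settings tried. Filled points were called with Holm adjustment and the open point, the brighter Smtn probe, was not, and the tick far to the left of Lmod1 is the normexp value of 2.76.

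Ordered by the size of the difference, Myh11 stood first by 2.62 log2 units over Cnn1, and their 95% intervals did not overlap. Cnn1 exceeded Tpm2 by 0.86, with intervals that met at their ends. Tpm2, Tagln, Mylk, Acta2 and Lmod1 followed with steps of 0.07 to 0.43 between neighbours, and at each step the within-array differences of the populations overlapped. Lmod1 exceeded Myl9 by 1.48, Myl9 exceeded Actg2 by 0.13, and Actg2 exceeded the brighter Smtn probe by 1.09. Of these, only the step from Myl9 to Actg2 was within the spread of the arrays. Steps that involve the dimmest fetal signals depended on the background correction. Under normexp, Lmod1 differed by 2.76 and Myl9 by 2.54, and Myh11 by 7.46 and Cnn1 by 5.97. Since the order was read from these values, no test of it was made.

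Among the fetal arrays, most members were lowest on the same array, as were many genes of other lists. Fetal replicate 3 was the lowest fetal array for 8 of the 10 genes, with a median deviation of -0.12 from the fetal mean. Fetal replicate 2 was above the fetal mean for all 10 genes, with a median deviation of 0.13. The medians over all tested probes on those arrays were 0.024 and 0.000. Over all 20448 tested probes, fetal replicate 3 was the lowest fetal array for 5931. It was also the lowest for 13 of 22 tested relatives of the members (listed below) and 18 of 25 dense body genes. In the myosin phosphorylation list it was the lowest for 9 of 22. Of epithelial markers tested, it was the lowest for 7 of 8 luminal and 3 of 8 basal ones. For pericyte and vascular smooth muscle markers it was 3 of 7, and for striated muscle markers 1 of 6. Fibroblast, endothelial and leukocyte markers gave 0 of 7, 0 of 5 and 0 of 5. The part that the cell types on this array had in the members' values was not tested. Among adult basal arrays no array was high or low for most members, with median deviations between -0.01 and 0.01. Krt14 was at 13.39 on adult basal replicate 2 against 15.25 and 15.46 on the others, whereas Acta2 was at 18.48 there against 18.56 and 18.39. No other listed basal marker dropped as far on that array. Krt17 was at 17.25 there against 17.11 and 17.21, and Itga6 at 15.53 against 15.97 and 15.68.

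The differences held within each slide. On the slide with 1 fetal and 2 adult basal arrays, Acta2 differed by 3.88, Myh11 by 8.71 and the brighter Smtn probe by 1.26 on the log2 scale. On the slide with 2 fetal arrays and 1 adult basal array, they differed by 4.17, 8.58 and 1.41. All 10 genes were higher in adult basal cells on both slides.

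Non-muscle and striated relatives, a list of 27 genes for the same protein families, were examined to see whether the muscle isoforms moved apart from the rest of their families. Of 26 on the array and 22 tested, 1 was called higher in adult basal cells (Acta1), 1 higher in fetal cells (Myh14) and 20 were not called, and the median log2 difference was 0.15. With Benjamini-Hochberg adjustment 4 were called higher in adult basal and 5 higher in fetal cells (that rule called 3267 of all 20448 tested probes in the fetal direction), and under normexp as well as under trend and robust estimation 3 and 4 were. Actb and Actg1, the cytoplasmic actins of nearly every cell, differed by -0.19 and -0.01, and the other 4 probes of Actg1 by -0.27 to 0.59, none called. Acta1, skeletal α-actin, differed by 4.68 (standard error 0.12), with 9.74, 9.87 and 9.51 in fetal and 14.33, 14.49 and 14.33 in adult basal cells. It passed with a Holm-adjusted p of 3.4e-05. Acta1 and Acta2 are close in sequence, and how far the Acta1 probe also binds Acta2 transcripts was not tested. Actc1, cardiac α-actin, had log2 signals of 5.05, 5.67 and 4.54 in fetal and 7.98, 10.05 and 7.49 in adult basal cells, and its difference of 3.42 was not called (Holm-adjusted p = 1).

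Among the non-muscle myosin heavy chains, Myh9 differed by 1.7 (Holm-adjusted p = 0.085) and Myh10 by -1.37 (Holm-adjusted p = 0.19), neither called. The probes of Myh14 went opposite ways, by -2.31 for the brighter and 2.73 for the dimmer probe, both called. Those of Tpm1, a tropomyosin gene of muscle and non-muscle cells with many transcripts, ran from -2.18 to 1.51 over its 5 probes and none was called.

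Set beside a named non-muscle relative on the same array, each of 8 members gained on it in adult basal cells. The gain was 6.93 for Myh11 over Myh9, 5.89 for Tpm2 over Tpm3, 5.57 for Cnn1 over Cnn3 and 5.36 for Lmod1 over Tmod3 on the log2 scale. It was 4.74 for Tagln over Tagln2, 4.26 for Acta2 over Actb, 2.98 for Myl9 over Myl12b and 2.41 for Actg2 over Actg1. The 3 adult values of this within-array difference were above the 3 fetal values for all 8 pairs. In an exact two-sided permutation test each pair gave p = 0.1, also after Benjamini-Hochberg adjustment over the 8 pairs, the smallest p that 3 arrays against 3 can give, so this test could not reach 0.05. With normexp background correction Myh11 over Myh9 was 5.73, below Tpm2 over Tpm3 at 5.86, and Lmod1 over Tmod3 was 3.98. Actg2 over Actg1 was 2.07 with 75th percentile normalization, and Myh11 over Myh9 was 7.21 with the deposited values. Tmod3 itself differed by -1.35 (Holm-adjusted p = 0.056), which enters that gain. Each gain depends on the relative named. Myl12a and Tpm4 differed by 0.17 and 0.43, where Myl12b and Tpm3 differed by -0.46 and -0.75, so gains over them would be smaller. Myh10 (-1.37) in place of Myh9 (1.7) would give a larger one.

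**Figure D3:**
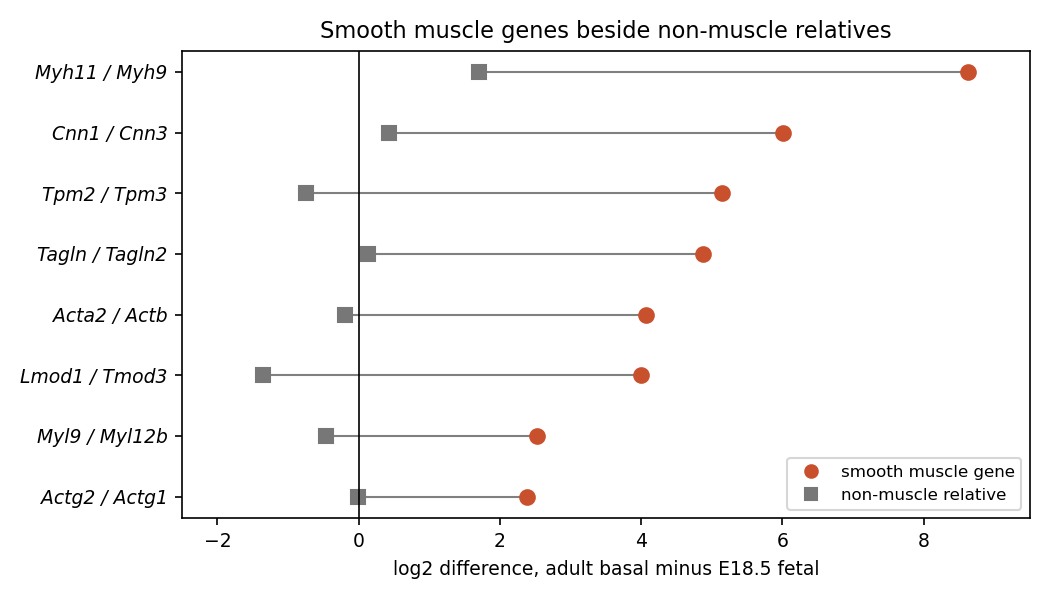
Log2 difference, adult basal minus E18.5 fetal, of 8 smooth muscle genes (circles) and a non-muscle relative of each (squares), brightest probes, n = 3 arrays in each population. Every circle is to the right of its square. The lines span 2.41 (Actg2 and Actg1, 2.07 with 75th percentile normalization) to 6.93 (Myh11 and Myh9, 5.73 with normexp background correction and 7.21 with the deposited values).

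Genes of myosin phosphorylation and calcium regulation (the myosin phosphorylation list) numbered 22, all tested. Not all of them set phosphorylation, as Cald1 and Myl6b below. Of these, 4 were called higher in adult basal cells, 1 higher in fetal cells and 17 were not called, with a median log2 difference of -0.04. With Benjamini-Hochberg adjustment the counts were 6 and 4, and at an unadjusted p under 0.05 they were 8 in each direction. The 4 were Prkg1, the cyclic GMP-dependent kinase that relaxes smooth muscle (4.12, Holm-adjusted p = 1.5e-04), and Ppp1r14a, or CPI-17, which inhibits myosin phosphatase (3.48, Holm-adjusted p = 0.0018). They also included Cald1, caldesmon, an actin-binding brake on myosin (2.43, Holm-adjusted p = 0.011), and Ppp1r12a, the targeting subunit of myosin phosphatase (1.80, Holm-adjusted p = 0.042). These 4 do not act in 1 direction on contraction. The fetal one was Myl6b, an essential light chain (-3.23, Holm-adjusted p = 0.022). Rhoa, Rock1 and Rock2, which act on myosin phosphatase in most cells, differed by -0.13, -0.04 and 0.40, and Calm3, a calmodulin gene, by -2.12 (Holm-adjusted p = 0.08). The dimmer Calm3 probe differed by -1.42 and was called higher in fetal cells (Holm-adjusted p = 0.046). The dimmer probe of Ppp1r12a differed by 1.78 and was not called (Holm-adjusted p = 0.23), and those of Rhoa and Rock2 differed by 0.29 and 1.36, not called either. Without fetal replicate 2, fetal replicate 3, adult basal replicate 1 or adult basal replicate 3, the adult count of this list was 2.

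Dense bodies and dense plaques anchor actin filaments in smooth muscle. Of 25 listed and tested genes for their proteins, 7 were called higher in adult basal cells, 1 higher in fetal cells and 17 were not called, with a median log2 difference of 1.22. Synpo2, an actin-bundling protein of muscle, differed by 5.63 with its brightest probe (Holm-adjusted p = 9.8e-04), but by 1.24 and 1.85 with its other probes, neither called (Holm-adjusted p = 0.16 and 0.35). Palld and Nexn, actin-binding proteins, differed by 4.75 and 4.74, with Holm-adjusted p of 1.3e-04 and 1.4e-05. Actn1, α-actinin, which crosslinks actin, differed by 2.53, and Tln1 and Tns1, which link integrins to actin, by 1.61 and 1.40. The dimmer probe of Tns1 differed by 5.63 and was called (Holm-adjusted p = 0.0018), and that of Tln1 differed by 1.68 and was not (Holm-adjusted p = 0.67). Csrp2 was the gene called higher in fetal cells (-2.44, Holm-adjusted p = 0.019). Vcl, vinculin, and Flna, filamin A, differed by 1.22 and 1.15 with Holm-adjusted p of 1 and 0.27. Without fetal replicate 2 the adult count was 4, and with Benjamini-Hochberg adjustment it was 17. With slide as a block it was 5, and this list and the myosin phosphorylation list had 0 fetal calls. Both lists also had 0 fetal calls without the low-signal filter. The myosin phosphorylation list had 0 with all probes and with the replicate block too. None of the fetal calls of these lists (Myh14, Myl6b and Csrp2) was made without fetal replicate 1 or without fetal replicate 2, and those of Myl6b and Csrp2 were also lost without fetal replicate 3, those of Myh14 and Myl6b without adult basal replicate 1 and that of Csrp2 without adult basal replicate 2.

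Other cell types that make these transcripts were looked at through their markers. Basal epithelial markers were present in both populations, and 4 of 8 were called higher in adult basal cells, namely Oxtr, the oxytocin receptor (3.96), Krt5 (3.90, and 4.48 with its dimmer probe), Krt17 (3.08) and Jag2 (1.83). Krt14 differed by 1.20 with an adult SD of 1.14 and overlapping arrays. The brighter probe of Trp63 differed by 0.08 and the dimmer by 3.06, which was called (Holm-adjusted p = 1.9e-04). By limma with Holm adjustment, 0 of 8 luminal markers were called higher in adult basal cells (3 had an unadjusted p under 0.05). Benjamini-Hochberg adjustment called 2 higher in adult basal cells, Krt7 (1.29) and Krt19 (1.22). With Holm adjustment 3, Cldn7, Cldn3 and Cldn4, were called higher in fetal cells (-4.60, -4.39 and -2.65). Krt18 and Krt8 differed by -0.58 and -0.44, not called. The brighter Prlr probe differed by 0.35, not called, and the dimmer by -1.85, called higher in fetal cells (Holm-adjusted p = 0.026). Both labelled populations carried keratins of basal and luminal cells, with Krt8 at log2 signals of 14.34 to 14.63 in fetal and 13.93 to 14.21 in adult basal cells.

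Pericytes and vascular smooth muscle express many of the member genes. Of 10 markers of these cells, 7 were tested, with 1 called higher in adult basal cells, Pdgfrb (4.34, Holm-adjusted p = 5.6e-04), and 1 in fetal cells, Notch3 (-4.70, Holm-adjusted p = 2.9e-04). With Benjamini-Hochberg adjustment 3, among them Ednra (1.51), were called higher in adult basal and 1 higher in fetal cells. In limma, 5 and 1 had an unadjusted p under 0.05. Pdgfrb read 4.92, 4.76 and 5.23 in fetal and 9.04, 9.39 and 9.51 in adult basal cells. Rgs5, a pericyte marker, read 4.81, 5.10 and 4.42 in fetal and 6.75, 7.15 and 7.09 in adult basal cells (Holm-adjusted p = 0.14). Des, desmin, failed the scanner's background threshold on every fetal array and had a mean of 5.07 in adult basal cells, at least 2.46-fold higher, and Kcnj8 failed it on all 6 arrays. The summed normalised signal of the 10 markers was 51400, 48100 and 47900 in fetal and 81000, 87000 and 83900 in adult basal cells. Mcam, at log2 signals of 15.31 to 15.40 in fetal and 16.26 to 16.37 in adult basal cells, made up most of each sum. The sums therefore hardly reflect dimmer markers such as Pdgfrb, Rgs5 and Des. That of the 10 member genes was 103000, 103000 and 87300 in fetal and 1190000, 1160000 and 1130000 in adult basal cells. Acta2 was the brightest member in adult basal cells, and Smtn in fetal cells.

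Fibroblast markers moved in the same direction in part. Of 8, 7 were tested and 1, Dcn, was called higher in adult basal cells (3.78, Holm-adjusted p = 0.0023). The summed signals were 7820, 7790 and 9470 in fetal and 16600, 18600 and 25800 in adult basal cells. By mean log2 signal the brightest was Dcn in adult basal cells (13.38) and Fbln1 in fetal cells (11.49). With Benjamini-Hochberg adjustment 3 markers were called higher in adult basal and 1, Fbln1 (-1.03), higher in fetal cells, and Col1a1 differed by 0.01. The dimmer Fbln1 probe differed by -0.84 and was not called by that rule. Adult basal replicate 3 had the highest fibroblast sum, and it was the highest adult array for 4 members (Myh11, Mylk, Lmod1 and Tagln) and the lowest for 4 (Acta2, Cnn1, Actg2 and Smtn). Of 6 tested striated muscle markers (10 listed), limma with Holm adjustment called 0, as did Benjamini-Hochberg adjustment, and 2 had an unadjusted p under 0.05. Of 5 tested endothelial and 5 tested leukocyte markers (6 listed each), 0 were called with Holm adjustment, 3 and 2 with Benjamini-Hochberg adjustment (all higher in adult basal cells), and 3 and 3 had an unadjusted p under 0.05. Among these, Tyrobp, of leukocytes, read 7.82, 7.16 and 9.64 and Esam, of endothelium, 7.81, 7.09 and 7.92 on the adult basal arrays, where the fetal arrays were all below them. Which share of the member signal came from any of these cells was not tested.

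**Figure D4:**
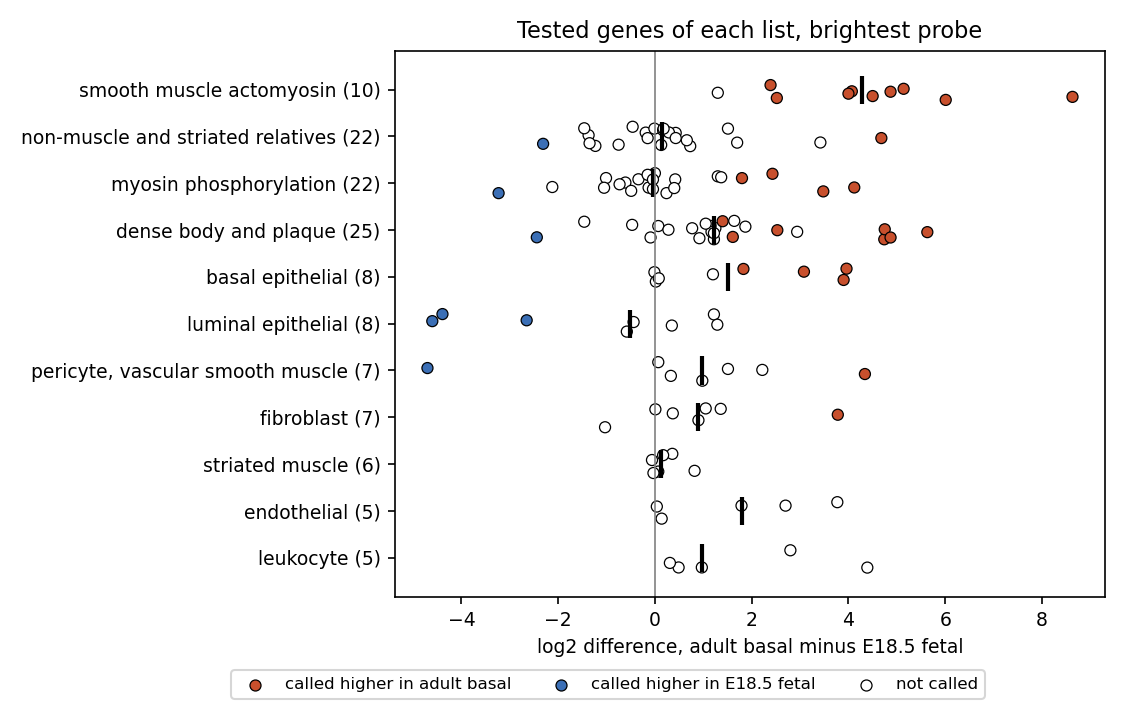
Log2 difference, adult basal minus E18.5 fetal, of the brightest probe of each tested gene in 11 lists (number of tested genes in brackets), with black bars at list medians and points spread vertically for legibility. The smooth muscle actomyosin genes have a median of 4.28, the relatives 0.15, the myosin phosphorylation list -0.04 and the dense body genes 1.22.

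Lastly, the genes whose signal over the 6 arrays was closest to the median profile of the members were sought among 15256 genes. The likeness was the root mean square of the log2 deviations between profiles, each centred on its own mean. They were Plpp3 (0.13), a lipid phosphate phosphatase, Slc7a8 (0.14), an amino acid transporter, Cxcl12 (0.15), a chemokine, Lhfp (0.15) and Rapgef3 (0.16), a cyclic AMP-activated exchange factor. Their log2 differences were 4.4, 4.28, 4.32, 4.48 and 4.43. Among the members themselves, Mylk was nearest to this profile (0.11) and Myh11 farthest (2.13). With 2 populations and 3 arrays of each, such likeness is mainly one of size.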

How the data were processed

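Each of the 6 RNA samples (3 E18.5 fetal, 3 adult basal) was hybridized to its own Agilent SurePrint G3 Mouse GE array, and populations and replicate numbers were taken from the labels. Labelling followed a whole-transcript protocol in the study's methods and a Quick Amp protocol with a T7 primer in the labels, and the sources used here do not settle which was used. The authors deposited linear spot intensities from Feature Extraction 11.0.1.1, already corrected for background (the processed signal), beside median and local background intensities. They also deposited log2 values, quantile normalized in GeneSpring, used here as an alternative.

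Here, spots marked as outliers (104 to 326 on an array) were left out, spots of a probe were averaged as log2 values, and the 6 arrays were quantile normalized. Probes were named by matching accessions, without versions, to RefSeq genes of GRCm38.p6 (27235 probes matched). No gene name column was present in the scanner files, so members were matched by accession alone. Only matched probes were used, unlike in the study, which filtered all probes. After removal of those that lay in the lowest of 3 k-means clusters in both populations, 20448 were tested in limma 3.58.1 (lmFit, eBayes, R 4.3.3), with p-values adjusted by Holm over all tested probes. The filter, fit and adjustment otherwise follow the study's methods. The fit was tested on simulated data. A probe not well above background in a population is given as a bound, set by the dimmest probes that passed the scanner's background threshold. Promoters were searched and plots drawn with Python 3.11.15.

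The members and lists were chosen with earlier results of these data known. Genes named are the members, genes of a list where it is discussed, and the 5 genes most like the members. An item of 1 list is not reported here. The alternatives were 75th percentile normalization, the deposited values, normexp (offset 50), no filter or one on the scanner's background threshold, all probes, Benjamini-Hochberg adjustment, eBayes with trend and robust estimation, an offset of 16, replicate number or slide as a block, each array left out, and a mean over the probes of each gene.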

Additional observations from a re-analysis of the deposited data

How the results depend on the processing

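No member changed direction under any of the 18 alternatives. Acta2, Cnn1, Lmod1, Myh11, Mylk, Tagln and both Tpm2 probes were called under each alternative that gave them a value. Actg2 and Myl9 each lost the Holm threshold in 4 alternatives (adjusted p of 0.058 to 0.11 for Actg2 and 0.051 to 0.078 for Myl9), and the dimmer Smtn probe in 3 (0.051 to 0.087), each time with 1 array left out. The brighter Smtn probe passed the Holm threshold under normexp, trend and robust estimation and an offset of 16 (adjusted p of 0.035, 0.0014 and 0.027). Under Benjamini-Hochberg adjustment its adjusted p was 2.7e-05. The mean of both Smtn probes differed by 1.96 and passed the Holm threshold (adjusted p of 0.002). Member probes called ran from 8 to 12 over the 17 alternatives that count probes, and with the mean of each gene's probes all 10 genes were called.

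Over all tested probes, calls higher in adult basal and in fetal cells (1060 and 1210) became 563 and 619 without the low-signal filter and 2866 and 3267 with Benjamini-Hochberg adjustment. They were 1591 and 1765 with trend and robust estimation and 740 and 801 with slide as a block. With each array left out they ran from 430 to 938 and from 495 to 1043. Arrays of the same replicate number were hardly correlated in their deviations (-0.03, 0.09 and 0.05). Adult basal replicates 2 and 3 were still closest to the fetal replicate of their own number, so a pairing is not settled. The replicate block gave 608 and 694 calls and called 11 member probes. The causes were not tested. The myosin phosphorylation list had 2 adult calls without the low-signal filter and with the replicate block. With 3 arrays in each population, members with differences of up to 6.16-fold lost the Holm threshold when 1 array was left out, and dim fetal signals (Myh11, Lmod1) depend on the background correction.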
